A study of Homo sapiens with 12 samples.

Results

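The genes described here are 38 genes of homologous recombination and neighbouring repair pathways, chosen by symbol from the 28008 genes of each count table. Every one of the 38 has a row in both tables and passed the filter on low counts in both lines. RNA-seq was performed on a pair of established cell lines from human pancreatic neuroendocrine tumors, QGP-1 and BON-1, which both carry a tet-inducible hairpin against MUC1 (tet-MUC1shRNA, in a lentiviral vector selected with puromycin). Cells of each line were treated with 0.1% DMSO as vehicle or with 500 ng/ml doxycycline (DOX) over 7 days, and each of the 4 groups has 3 libraries. All 12 libraries carry the same hairpin, and DOX-treated cells with a control hairpin were not analysed here, so that an effect of DOX itself and the effect of silencing cannot be told apart. QGP-1 and BON-1 cells were grown in different media. The comparison asks how the transcripts of these repair genes stand after MUC1 silencing, in each line and between the lines.

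Homologous recombination repairs a DNA double-strand break by copying the sister chromatid and is used mainly in S and G2 phase. The break is sensed by the MRE11-RAD50-NBN complex and signalled by the kinases ATM and ATR, its ends are resected to single strands, and BRCA1, PALB2, BRCA2 and a group of paralogs (RAD51B, RAD51C, RAD51D, XRCC2 and XRCC3) then help a protein filament to form on them. The Fanconi anemia pathway acts on crosslinked DNA strands: a core complex with the ubiquitin ligase FANCL marks the FANCD2-FANCI pair, the deubiquitinase USP1 removes the mark, and recombination completes the repair. Many of these genes are transcribed most in dividing cells, and some of them have promoters with E2F type sites.

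Total counts ranged from 38224144 to 50525926 per QGP-1 library and from 15981954 to 28484324 per BON-1 library. MUC1, the target of the hairpin, was at 7.37, 5.95 and 5.79 CPM (counts set per library size, scaled by TMM over the 12 libraries) with vehicle and at 0.722, 1.07 and 0.762 with DOX in QGP-1, and at 20.2, 20.1 and 15.0 against 1.42, 2.60 and 3.93 in BON-1. All 6 DOX libraries thus matched their labels, with log2 fold changes of −2.91 ± 0.23 (SE) in QGP-1 and −2.79 ± 0.22 in BON-1 (edgeR quasi-likelihood test, Benjamini-Hochberg adjusted p = 8.24e-07 and 6.51e-11). Of 17 neuroendocrine markers, NEUROD1 was under 1 CPM in every QGP-1 library and NCAM1, STMN2, PAX6 and ISL1 were under 1 CPM in every BON-1 library. The summed level of the list went from 6545 to 7431 CPM with vehicle to 7235 to 7872 CPM with DOX in QGP-1. In BON-1 it went from 11742 to 15240 CPM to 9618 to 9970 CPM. By gene the list moved in both directions. In QGP-1 4 of 16 tested were lower and 4 higher (25% each, against 17.7% and 17.3% of all genes tested). In BON-1 4 of 13 were lower and 2 higher (30.8% and 15.4%, against 18.3% and 17%). Of 13 markers of other cell types, PTPRC, CD3E, CD14, COL1A2, COL3A1, PDGFRB, PECAM1, VWF and ALB were under 1 CPM in all 4 groups. Their summed level went from 90.1 to 159.7 CPM with vehicle to 33.1 to 44.5 CPM with DOX in QGP-1, where COL1A1 and PRSS1 were lower, and from 59.0 to 71.6 CPM to 69.8 to 76.7 CPM in BON-1, where PRSS1 and CPA1 were lower and CD68 was higher. The part of these lists in the members' changes was not tested.

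With DOX, 12 of the 38 genes were lower and 3 were higher in QGP-1, and 6 were lower and 2 were higher in BON-1, at an adjusted p below 0.05 over all genes tested. FANCD2, FANCI and FANCG were lower and FANCM was higher in both lines, and FANCL was lower in QGP-1 and higher in BON-1. Of all 15089 genes tested in QGP-1, 17.7% were called lower and 17.3% higher (35.0% either way), against 31.6% and 7.89% of the members (39.5%). Of 14625 genes tested in BON-1, 18.3% were called lower and 17% higher (35.3% either way), against 15.8% and 5.26% of the members (21.1%), so that the share of members called lower was near the background in that line. Another scaling changed this split: log2(TPM + 1) values without centring, which moved the median of all genes from −0.01 to 0.29 in QGP-1, called 1 member lower there (RAD51B) and 16 higher, and called 6 lower and 0 higher in BON-1. The median log2 fold change of the members was −0.14 in QGP-1, where that of all genes was −0.01, and −0.04 in BON-1, where that of all genes was −0.01. The summed level of the 38 genes was 3002 to 3091 CPM with vehicle and 2855 to 2931 CPM with DOX in QGP-1, and 2392 to 2426 CPM against 2232 to 2400.1 CPM in BON-1, where the ranges overlapped. For the 3 genes lower in both lines, the background was 7.23% of the 13535 genes tested in both, and for the 1 gene higher in both it was 6.88%. FANCD2, FANCI and FANCG also stand in a list of cell cycle genes that the study drew from these libraries, and the direction of those 3 is therefore no independent evidence. Whether fewer cells of one kind or less RNA per cell lies behind a lower level cannot be told apart in bulk RNA.

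**Figure D1:**
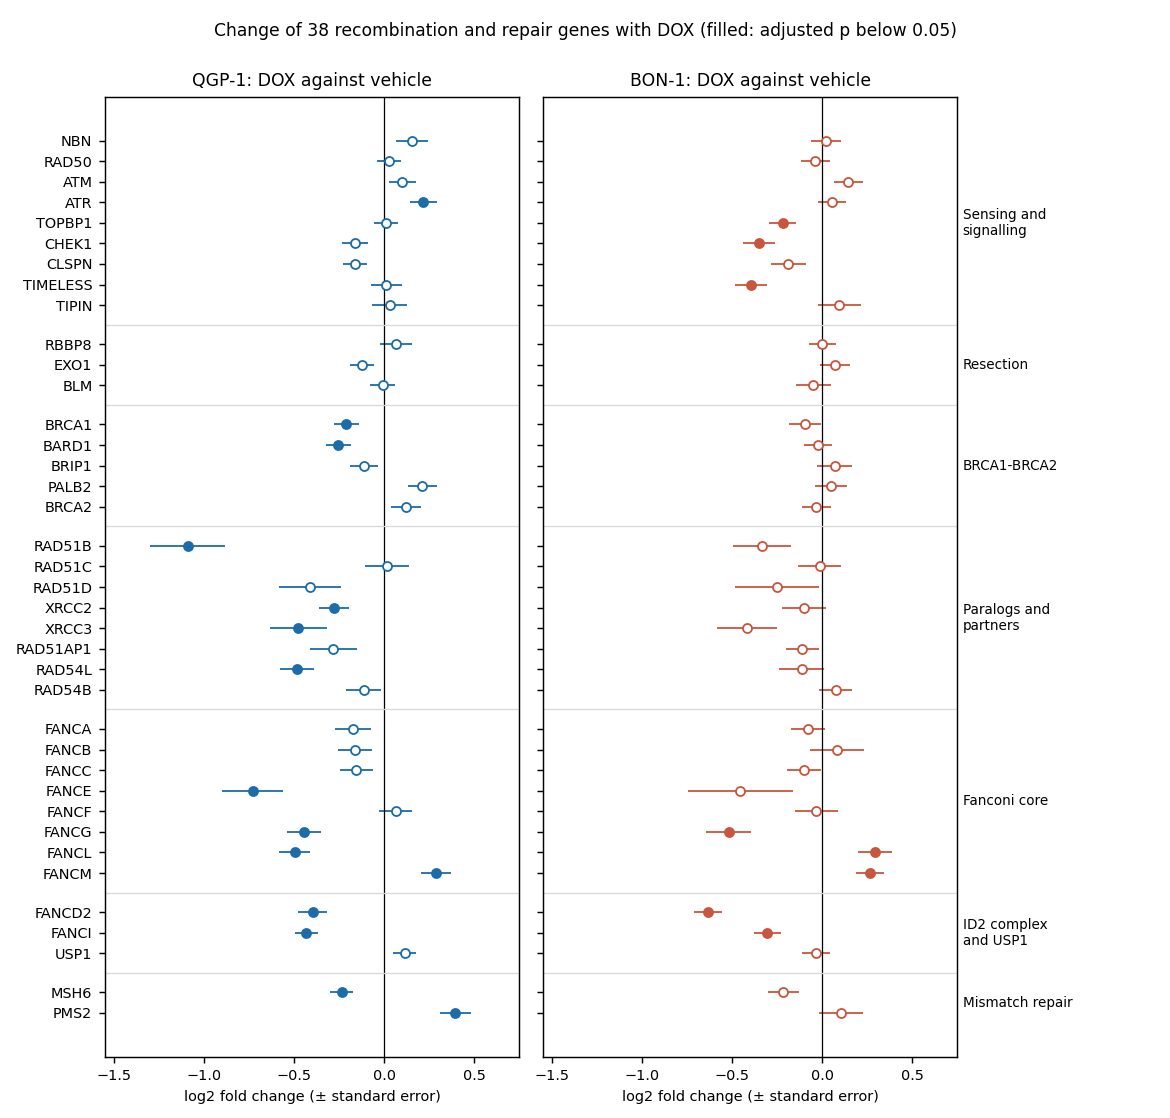
Log2 fold change with DOX (x axis, ± standard error) of the 38 genes, grouped by role, in QGP-1 (left) and BON-1 (right); filled points had an adjusted p below 0.05. The 12 filled points left of 0 in QGP-1 reach −1.09 for RAD51B, and those in BON-1 reach −0.63 for FANCD2; without centring, log2(TPM + 1) values put 14 of the 38 genes on the other side of 0 in QGP-1, BRCA1, BARD1, XRCC2 and MSH6 of the filled points among them, and RBBP8 and NBN in BON-1.

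All members with a promoter entry were searched for the letters of cell cycle sites. Promoters are shown first for genes called in the same direction in both lines, and were thus picked by those calls. These promoters (RefSeq, GRCh38.p14) run from 200 bases before to 30 after the start, printed 5′ to 3′ along the gene's strand. They are chr3:10026237-10026466 (plus strand), chr9:35079913-35080142 (minus strand) and chr14:45135730-45135959 (plus strand), and capitals mark an E2F type match in FANCD2 and a CCAAT box in FANCM. FANCG held none of the 4 kinds of letters searched, and no entry was used for FANCI, RAD54B and NBN.
FANCD2 promoter: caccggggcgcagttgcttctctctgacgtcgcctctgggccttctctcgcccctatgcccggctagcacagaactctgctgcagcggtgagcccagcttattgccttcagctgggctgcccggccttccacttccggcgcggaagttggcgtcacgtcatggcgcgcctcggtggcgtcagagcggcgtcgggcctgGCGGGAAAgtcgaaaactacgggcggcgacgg
FANCG promoter: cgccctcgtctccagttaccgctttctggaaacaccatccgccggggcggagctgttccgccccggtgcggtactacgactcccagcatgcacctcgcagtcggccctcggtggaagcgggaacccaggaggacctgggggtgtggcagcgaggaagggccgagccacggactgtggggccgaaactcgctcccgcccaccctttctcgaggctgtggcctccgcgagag
FANCM promoter: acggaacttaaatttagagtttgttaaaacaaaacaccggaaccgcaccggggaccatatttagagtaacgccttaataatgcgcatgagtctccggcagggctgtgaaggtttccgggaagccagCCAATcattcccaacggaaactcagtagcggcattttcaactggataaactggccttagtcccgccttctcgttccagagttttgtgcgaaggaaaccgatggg

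The 4 kinds of letters were searched on both strands of the 35 members with a promoter entry, from 250 bases before to 50 after the start: E2F type (TTTCCCGC, TTTCGCGC, TTTGCCGC or TTTGGCGC), the cell cycle homology region CHR (TTTGAA), the CCAAT box (CCAAT) and the E box (CACGTG). E2F type letters were in 9 of the 35 promoters (25.7%), in 4.98% of the promoters of 11687 genes tested in either line and in 3.33% of all 27305. CCAAT was in 17 of 35 (48.6%, against 36.4% of the genes tested), TTTGAA in 3 (8.57%, against 10.2%) and CACGTG in 4 (11.4%, against 9.71%). The E2F type matches are printed below with 10 bases on each side, in capitals for the match, along the gene's strand and with positions from the start site, since of the letters searched these had the share farthest from that of the genes tested, although most member promoters lack them.
XRCC2, bases 22 to 29: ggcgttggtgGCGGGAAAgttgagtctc
FANCA, bases −172 to −165: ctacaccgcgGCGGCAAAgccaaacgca
FANCC, bases −172 to −165: cggggcttccGCGCGAAAccgggaacac
FANCC, bases −46 to −39: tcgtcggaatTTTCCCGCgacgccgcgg
FANCD2, bases −2 to 6: gtcgggcctgGCGGGAAAgtcgaaaact
EXO1, bases 5 to 12: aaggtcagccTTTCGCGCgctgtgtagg
TOPBP1, bases −7 to 1: cgcgcggttgGCGCGAAAgtcggttccc
CLSPN, bases −5 to 3: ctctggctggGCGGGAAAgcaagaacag
MSH6, bases 4 to 11: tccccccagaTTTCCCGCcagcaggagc
PMS2, bases −43 to −36: gggaagtattTTTGCCGCcccgcccgga
The matches of XRCC2, FANCD2, EXO1, TOPBP1, CLSPN and MSH6 lie within 29 bases of the start site. Of the 9 genes with a match, XRCC2 and MSH6 were lower in QGP-1, TOPBP1 in BON-1 and FANCD2 in both lines, PMS2 was higher in QGP-1, and FANCA, FANCC, EXO1 and CLSPN were called in neither line. A match is a description of letters and not of a bound factor.

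The Fanconi anemia ID2 complex, the pair that the core complex ubiquitinates, held the member with the lowest adjusted p in each line, FANCI in QGP-1 and FANCD2 in BON-1. FANCD2 (chr3:10026370-10101932, GRCh38, plus strand) was at 116, 122 and 119 CPM with vehicle and 101, 87.1 and 82.7 CPM with DOX in QGP-1, and at 115, 111 and 106 CPM against 70.9, 72.0 and 72.8 CPM in BON-1. All DOX libraries of a line lay below all its vehicle libraries, and the log2 fold change was −0.40 ± 0.08 (SE, adjusted p = 0.00181) in QGP-1 and −0.63 ± 0.08 (adjusted p = 2.7e-07) in BON-1. The test of the difference between the lines gave −0.23 ± 0.11 (adjusted p = 0.173, and 0.0476 with library size in place of TMM). FANCI (chr15:89243945-89317261, plus strand) was at 155, 159 and 155 CPM against 115, 118 and 114 CPM in QGP-1, and at 182, 171 and 175 CPM against 134, 146 and 149.9 CPM in BON-1. Its groups did not overlap in either line, with log2 fold changes of −0.43 ± 0.06 (adjusted p = 0.000155) and −0.30 ± 0.07 (adjusted p = 0.00195), and the difference between the lines did not pass the test (adjusted p = 0.364). USP1, which removes ubiquitin from FANCD2, was called in neither line: its log2 fold change was 0.11 ± 0.06 in QGP-1 and −0.03 ± 0.08 in BON-1. FANCD2 and FANCI kept their calls in both lines when any 1 library was left out. On TPM values without centring the QGP-1 calls of both were lost.

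The Fanconi core complex moved in both directions. Of its 8 members, FANCE, FANCG and FANCL were lower and FANCM was higher in QGP-1, and FANCG was lower and FANCL and FANCM were higher in BON-1. FANCG, an adaptor of the complex (chr9:35073835-35080004, minus strand), was at 31.7, 33.0 and 29.3 CPM with vehicle and at 21.4, 24.9 and 22.9 CPM with DOX in QGP-1, and at 22.3, 22.4 and 22.5 CPM against 17.7, 16 and 13.6 CPM in BON-1. Its DOX libraries lay below the vehicle libraries in both lines, with log2 fold changes of −0.44 ± 0.09 (adjusted p = 0.00237) and −0.52 ± 0.13 (adjusted p = 0.00191). The QGP-1 call of FANCG was lost on TPM values without centring. FANCM, the DNA translocase that anchors the complex to chromatin (chr14:45135930-45200890, plus strand), was at 33.3, 35.4 and 38 CPM against 43.1, 42.2 and 45.0 CPM in QGP-1, and at 88.8, 91.8 and 89.8 CPM against 107, 103 and 117 CPM in BON-1. The groups did not overlap and the changes were alike in size, 0.29 ± 0.08 (adjusted p = 0.0156) and 0.27 ± 0.08 (adjusted p = 0.00869) on the log2 scale. The FANCM call was lost in QGP-1 without vehicle replicate 1, vehicle replicate 2 or DOX replicate 3 (adjusted p up to 0.0707), and in BON-1 without DOX replicate 3 (adjusted p = 0.051) and on TPM values without centring.

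FANCL, the ubiquitin ligase subunit (chr2:58159243-58241410, minus strand), was the member whose response differed most between the lines. It was at 63.7, 65.6 and 77.5 CPM with vehicle and at 46.7, 49.0 and 50.9 CPM with DOX in QGP-1, where the groups did not overlap (log2 fold change −0.50 ± 0.09, adjusted p = 0.000654). In BON-1 it was at 41.6, 50.4 and 51 CPM with vehicle and at 57.3, 55.9 and 63.2 CPM with DOX, again without overlap but in the other direction (0.30 ± 0.10, adjusted p = 0.0162). The interaction of cell line and DOX was 0.80 ± 0.14 (adjusted p = 0.000208) and kept its call without any 1 of the 12 libraries. The BON-1 rise alone was lost without vehicle replicate 1, DOX replicate 1 or DOX replicate 3 (adjusted p up to 0.126), with library size in place of TMM and on TPM values with or without centring. The QGP-1 fall was lost on TPM values without centring. VRK2, a kinase gene that overlaps FANCL on the other strand, had log2 fold changes of −0.17 (adjusted p = 0.0912) and 0.08 (adjusted p = 0.549). Whether the counting used the strand is not given in the sources used here, so reads of overlapping genes such as FANCL and VRK2 may not be told apart.

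**Figure D2:**
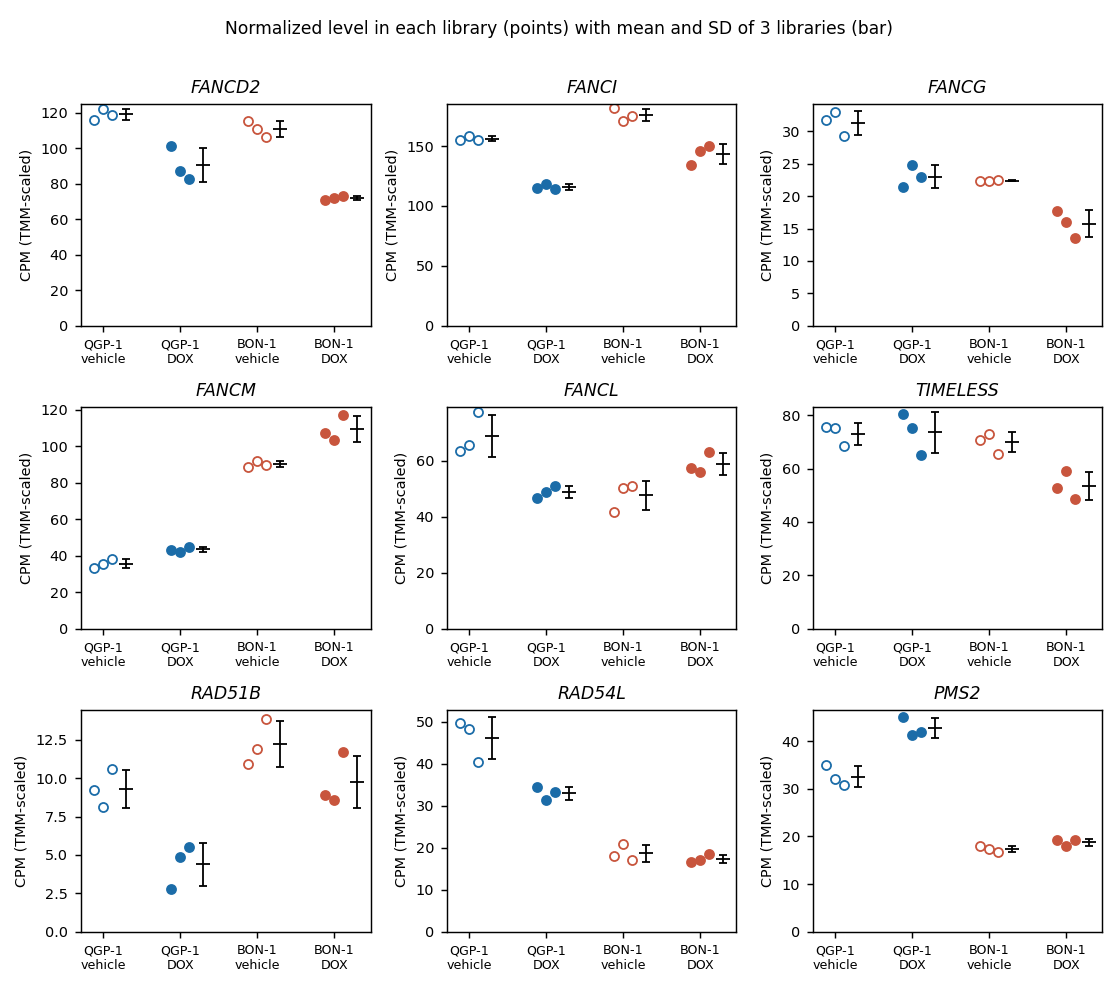
Level of 9 genes in CPM (y axis from 0, TMM-scaled) in each of the 3 libraries of each group (open points vehicle, filled points DOX), with mean ± SD as a bar beside them. FANCD2, FANCI and FANCG fell and FANCM rose in both lines, whereas FANCL went from a mean of 68.9 to 48.9 CPM in QGP-1 and from 47.7 to 58.8 CPM in BON-1.

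Of the other core members, FANCE, which links the core complex to FANCD2, was at 8.04, 5.76 and 7.63 CPM with vehicle and 3.80, 4.47 and 4.65 CPM with DOX in QGP-1. These groups did not overlap (log2 fold change −0.73 ± 0.17, adjusted p = 0.00437), and the call was lost on TPM values without centring. In BON-1 the gene was at 3.21, 2.76 and 3.68 CPM against 1.55, 3.0 and 2.47 CPM, with overlapping groups and counts of 25 to 92 in a library (−0.45 ± 0.29, adjusted p = 0.243). The interaction of 0.29 ± 0.33 did not pass the test (adjusted p = 0.595), so FANCE was not shown to respond differently in the lines. FANCA, FANCB, FANCC and FANCF, the remaining core subunits, were called in neither line, with log2 fold changes between −0.17 and 0.08.

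The filament paralogs and partners (RAD51AP1, RAD51B, RAD51C, RAD51D, RAD54B, RAD54L, XRCC2 and XRCC3), which act on the filament of strand exchange, gave calls in QGP-1, where RAD51B, XRCC2, XRCC3 and RAD54L, 4 of 8, were lower (median log2 fold change −0.35). In BON-1 0 of 8 were called by edgeR or DESeq2 and 2 had an unadjusted p below 0.05 (median −0.11), while library size, TPM values without centring, no filter and a filter of 10 counts in every library called XRCC3. The interaction was called for 0 of the 8 by edgeR or DESeq2, with an unadjusted p below 0.05 for 2. That of RAD51B was called with no filter on low counts (adjusted p = 0.0247) and without QGP-1 DOX replicate 3 (0.0206), and that of RAD54L without QGP-1 vehicle replicate 3 (0.0406). RAD51B, a subunit of the BCDX2 paralog complex, had the lowest fold change of all members: it was at 9.25, 8.11 and 10.6 CPM with vehicle and at 2.80, 4.86 and 5.5 CPM with DOX in QGP-1. The groups did not overlap (−1.09 ± 0.21, adjusted p = 0.00117), and this call held without any 1 library. In BON-1 RAD51B was at 10.9, 11.9 and 13.9 CPM against 8.92, 8.6 and 11.7 CPM, with overlapping groups (−0.33 ± 0.16, adjusted p = 0.111, and 0.0278 without DOX replicate 3), and the interaction was 0.77 ± 0.28 (adjusted p = 0.0595). RAD54L, the motor protein that drives strand exchange, was at 49.7, 48.2 and 40.4 CPM against 34.4, 31.3 and 33.3 CPM in QGP-1 (−0.48 ± 0.09, adjusted p = 0.00134), without overlap, a call that was lost on TPM values without centring. In BON-1 its groups overlapped, at 17 to 20.8 CPM with vehicle and 16.7 to 18.4 CPM with DOX (−0.11 ± 0.12).

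XRCC2 and XRCC3, subunits of the 2 paralog complexes, were lower in QGP-1 by smaller margins, −0.28 ± 0.08 (adjusted p = 0.0177) and −0.48 ± 0.16 (adjusted p = 0.0297), where TPM values without centring turned the sign of XRCC2 and lost the call of XRCC3. The XRCC2 call was lost without vehicle replicate 2 or DOX replicate 2 (adjusted p up to 0.0997), and the XRCC3 call without vehicle replicate 1, vehicle replicate 3, DOX replicate 1 or DOX replicate 3 (up to 0.113). XRCC3 was close to the threshold in BON-1 as well (−0.42 ± 0.17, adjusted p = 0.055), where its groups did not overlap. RAD51C, RAD51D, RAD51AP1 and RAD54B were called in neither line by edgeR, while in QGP-1 RAD51D was called lower on centred TPM values (adjusted p = 0.0333) and without DOX replicate 1 (0.0348), and RAD51AP1 with no filter on low counts (0.0133) and without vehicle replicate 1 (0.00259). Their log2 fold changes lay between −0.41 for RAD51D and 0.01 for RAD51C in QGP-1, and between −0.25 and 0.08 in BON-1. KLC1 and LRRC41, which overlap XRCC3 and RAD54L on the other strand, were higher in QGP-1, by 0.24 and 0.26 on the log2 scale.

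Among the BRCA1-BRCA2 complexes, BRCA1 and its partner BARD1, which together form a ubiquitin ligase, were lower in QGP-1, although both turned sign on TPM values without centring. BRCA1 was at 108, 118 and 113 CPM with vehicle and at 92.2, 101 and 101 CPM with DOX, and BARD1 at 110.3, 117 and 119 CPM against 100.1, 95.3 and 94.6 CPM. Neither pair of groups overlapped, with log2 fold changes of −0.21 ± 0.07 (adjusted p = 0.0343) and −0.25 ± 0.07 (adjusted p = 0.0102). The BARD1 call held without any 1 library, whereas that of BRCA1 held in 1 of 6 such fits, the fit without vehicle replicate 1, and reached an adjusted p of 0.141. It was also lost with library size (adjusted p = 0.0587), with both lines in 1 fit (0.0504) and on centred TPM values (0.0509). In BON-1 0 of the 5 genes of these complexes were called by edgeR or DESeq2, 0 had an unadjusted p below 0.05, and log2 fold changes lay between −0.09 for BRCA1 and 0.07 for the helicase BRIP1. PALB2, which bridges BRCA1 and BRCA2, was higher in every DOX library of QGP-1 than in every vehicle library but was close to the threshold by edgeR (0.21 ± 0.08, adjusted p = 0.0592). It was past it by DESeq2 (adjusted p = 0.0468), with library size (0.0467) and without vehicle replicate 2 (0.0421). BRCA2, the partner of PALB2 in filament loading, had values of 0.12 ± 0.08 in QGP-1, called higher without DOX replicate 1 (adjusted p = 0.0232), and −0.03 ± 0.08 in BON-1.

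Of the 9 sensing and signalling genes, ATR was higher in QGP-1, and TIMELESS, TOPBP1 and CHEK1 were lower in BON-1. TIMELESS, a replisome protein that supports the fork checkpoint (chr12:56416363-56449426, minus strand), was at 70.8, 72.9 and 65.6 CPM with vehicle and 52.7, 58.9 and 48.7 CPM with DOX in BON-1 (−0.39 ± 0.09, adjusted p = 0.000971), without overlap. In QGP-1 it was at 75.6, 75.1 and 68.3 CPM against 80.4, 75.1 and 65.1 CPM, which overlapped (0.01 ± 0.09). The interaction of −0.40 ± 0.13 passed the test (adjusted p = 0.0369), and leaving out single libraries lost that call 6 times out of 12 (adjusted p up to 0.0881), without BON-1 vehicle replicate 1, vehicle replicate 2 or DOX replicate 3 and without QGP-1 vehicle replicate 2, vehicle replicate 3 or DOX replicate 2. TIPIN, the binding partner of TIMELESS, had values of 0.03 ± 0.10 and 0.10 ± 0.12 in QGP-1 and BON-1.

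CHEK1, the effector kinase of the ATR checkpoint, was at 60.6, 59.7 and 57.1 CPM against 42.2, 49.6 and 48.0 CPM in BON-1 (−0.35 ± 0.09, adjusted p = 0.0025) and kept its call without any 1 library. In QGP-1 its groups did not overlap either, at 88.3 to 96.2 CPM against 79.9 to 83.6 CPM, but the change did not pass the test (−0.16 ± 0.07, adjusted p = 0.0897). STT3A, which overlaps CHEK1 on the same strand, had edgeR log2 fold changes of 0.14 in QGP-1 (adjusted p = 0.118) and −0.20 in BON-1 (0.0506). Its median count in BON-1 was 4481, against 1022 for CHEK1. Reads that fall in both genes may not be told apart, so the CHEK1 values are uncertain. TOPBP1, which activates ATR, was at 175, 173 and 168 CPM against 141, 146 and 158 CPM in BON-1 (−0.22 ± 0.07, adjusted p = 0.0211), a call that was lost without vehicle replicate 2, DOX replicate 1 or DOX replicate 2 (up to 0.0695) and on TPM values without centring. ATR itself was at 62.1, 60.4 and 62.2 CPM against 76.1, 68.2 and 70.4 CPM in QGP-1 (0.22 ± 0.07, adjusted p = 0.0348), without overlap. That call held in 1 of the 6 fits on 5 libraries, the fit without DOX replicate 2, reached an adjusted p of 0.118 in the others and was lost on centred TPM values. In BON-1 the value was 0.06 ± 0.08. NBN, RAD50, ATM and CLSPN were called in neither line by edgeR. CLSPN was called lower without vehicle replicate 3 in QGP-1 (adjusted p = 0.0358) and without vehicle replicate 3 or DOX replicate 2 in BON-1 (0.0288 and 0.0488). The log2 fold changes of these 4 genes lay between −0.16 and 0.15 in QGP-1 and between −0.19 and 0.15 in BON-1.

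End resection, which exposes the single strands, gave 0 calls of 3 in both lines by edgeR and DESeq2, and 0 had an unadjusted p below 0.05: RBBP8, the CtIP cofactor of MRE11, the nuclease EXO1 and the helicase BLM had log2 fold changes between −0.12 and 0.07. EXO1 was lower in every DOX library in QGP-1 and higher in every DOX library in BON-1, and the interaction did not pass the test (0.20 ± 0.10, adjusted p = 0.196). Of the 2 mismatch repair genes, MSH6, which recognises mispaired bases, was at 184, 176 and 179 CPM against 149.9, 150.1 and 157 CPM in QGP-1 (−0.24 ± 0.06, adjusted p = 0.0102), a fall whose sign turned on TPM values without centring. In BON-1 it was close to the threshold (−0.21 ± 0.09, adjusted p = 0.0579) and was called lower with library size (adjusted p = 0.0221), no filter (0.035), a filter of 10 counts in every library (0.0362) and without vehicle replicate 3 (0.0262). FBXO11, which overlaps MSH6 on the other strand, was higher in QGP-1 by 0.34.

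PMS2, a mismatch repair endonuclease, was the member that rose most in QGP-1: it was at 34.9, 32.0 and 30.7 CPM with vehicle and at 45.1, 41.3 and 42.0 CPM with DOX (0.40 ± 0.09, adjusted p = 0.00265), without overlap. In BON-1 its DOX libraries, at 19.3, 18.0 and 19.2 CPM, also lay above the vehicle libraries at 17.9, 17.4 and 16.7 CPM, but the change did not pass the test (0.11 ± 0.12, adjusted p = 0.53). PMS2 has near-identical pseudogenes: 8 of them have rows and together held 1449 to 2153 counts in a QGP-1 library, where PMS2 held 1298 to 2123, and the pseudogene PMS2CL rose by 0.34 on the log2 scale in QGP-1 (adjusted p = 0.019). How reads that fit both places were counted is not given in the sources used here, so the PMS2 values are uncertain.

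**Figure D3:**
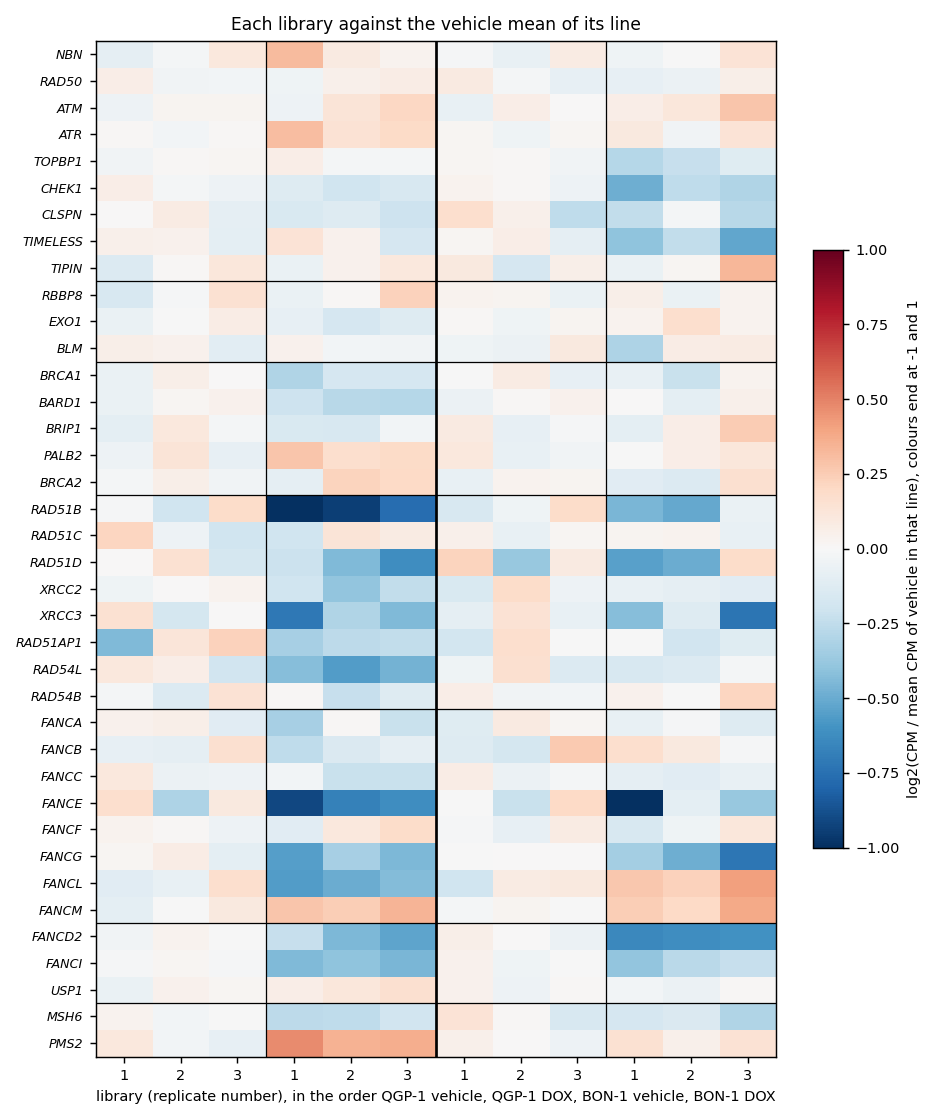
Log2 ratio of each library's CPM to the vehicle mean of its line (colour, from −1 in blue to 1 in red, cut at both ends) for the 38 genes (rows, by role) in 12 libraries (columns). FANCD2, FANCI and FANCG are blue in all 6 DOX columns and FANCM is red in all 6, while FANCL is blue in the 3 QGP-1 and red in the 3 BON-1 DOX columns.

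Counted by libraries alone, every DOX library lay below every vehicle library for 16 members in QGP-1 (23.3% of all genes did so) and for 8 in BON-1 (23.0%), and above for 5 (23.4%) and 4 (22.8%). With 3 against 3 libraries, an exact two-sided permutation test of 1 gene cannot give a p below 0.1. The calls rest on each gene's own spread between libraries, which edgeR moderates with the spread of all genes. In the interaction fit, 7.92% of 16598 genes were called lower and 8.80% higher (16.7% either way), against 1 member each, TIMELESS and FANCL. The 20 members called in neither line by edgeR are BRCA2, BRIP1, PALB2, RAD51AP1, RAD51C, RAD51D, RAD54B, FANCA, FANCB, FANCC, FANCF, BLM, EXO1, RBBP8, NBN, RAD50, ATM, CLSPN, TIPIN and USP1. In QGP-1 other settings called PALB2 higher (DESeq2 and library size), RAD51D lower (centred TPM values) and RAD51AP1 lower (no filter on low counts), and TPM values without centring called 13 members higher that edgeR did not call there.

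With vehicle, 20 of the 38 genes were lower and 10 higher in BON-1 than in QGP-1, and their share of 78.9% either way was near that of all genes (background 37.5% lower, 37.5% higher and 74.9% either way of 16598 genes), and TPM values without centring, which moved the median of all genes by 0.30, put this at 17 lower and 15 higher. Every BON-1 library lay below every QGP-1 library for 22 members (38.9% of all genes) and above for 11 (38.8%). The line, its medium and the depth of its libraries cannot be told apart in this contrast. FANCM was the member most above QGP-1, at 90.2 ± 1.56 CPM (SD, n = 3) in BON-1 and 35.6 ± 2.37 CPM in QGP-1, a log2 difference of 1.34 ± 0.08 (SE). ATR, BRCA2, RAD51AP1 and XRCC3 were higher in BON-1 by 0.74, 0.59, 0.65 and 0.64. CLSPN, the adaptor through which ATR activates CHEK1, was most below, at 61.8 ± 9.01 CPM against 173 ± 10.4 CPM (−1.48 ± 0.09). FANCB, RAD54L, MSH6, BLM, FANCE, XRCC2 and BRCA1 were lower by 1.00 to 1.35 on the log2 scale. The 3 resection genes and both mismatch repair genes were lower in BON-1, whereas FANCD2 (−0.10 ± 0.08, adjusted p = 0.244), TIMELESS, PALB2, TIPIN, FANCC, RAD51B, RAD51C and RAD51D were not called.

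**Figure D4:**
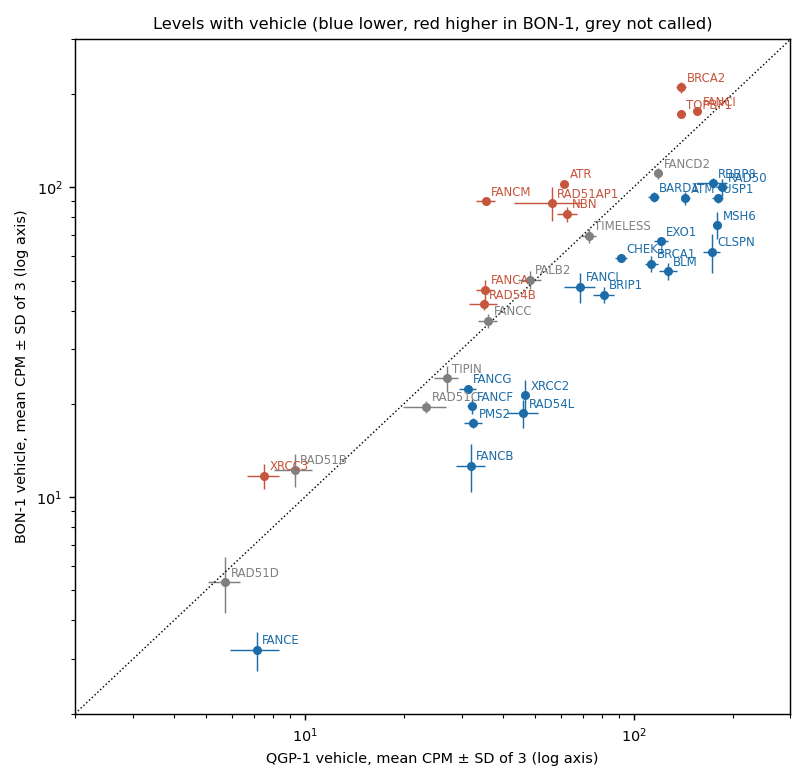
Mean CPM ± SD of 3 vehicle libraries in QGP-1 (x axis) and BON-1 (y axis), both log axes, for the 38 genes; the dotted line marks equal levels. The 20 blue points below it were called lower and the 10 red points above it higher in BON-1, with FANCM the farthest above and CLSPN the farthest below.

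Set per length, as TPM rescaled without 3 abundant structural RNAs, the members ranged from 1.71 for RAD51B to 89.4 for RBBP8 in QGP-1 with vehicle and from 2.88 for RAD51B to 97.2 for RAD51AP1 in BON-1. FANCL, FANCI and TOPBP1 were among the upper members in both lines, at 80.3, 59.0 and 46.3 TPM in QGP-1 and 71.5, 85.1 and 73.4 TPM in BON-1. RAD51B, RAD51D, FANCE and XRCC3 were among the lowest in both, at 1.71, 4.21, 5.31 and 5.39 TPM in QGP-1 and 2.88, 4.99, 3.06 and 10.8 TPM in BON-1. The lowest and the highest members thus differed by more than the calls did, and the RAD51B and FANCE changes are those of genes near the bottom of the range.

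The changes also varied with the make-up of the transcripts (GENCODE release 44, canonical transcript). Over the 38 genes, which share their libraries, Spearman's rho of the log2 fold change with transcript GC content was −0.41 in QGP-1 and −0.63 in BON-1, and over all genes with a transcript −0.11 and −0.29. With transcript length it was 0.38 in QGP-1 and 0.06 in BON-1, and 0.28 and 0.10 over all genes. The members lower in QGP-1 had a median transcript length of 3672 bases, the 3 higher ones 7131 and those not called 4592. In BON-1 these medians were 4914.5, 4394.5 and 4428.5 bases, with the lower members the longest. These are descriptions over genes, and the part of GC content and length in the result was not tested.

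**Figure D5:**
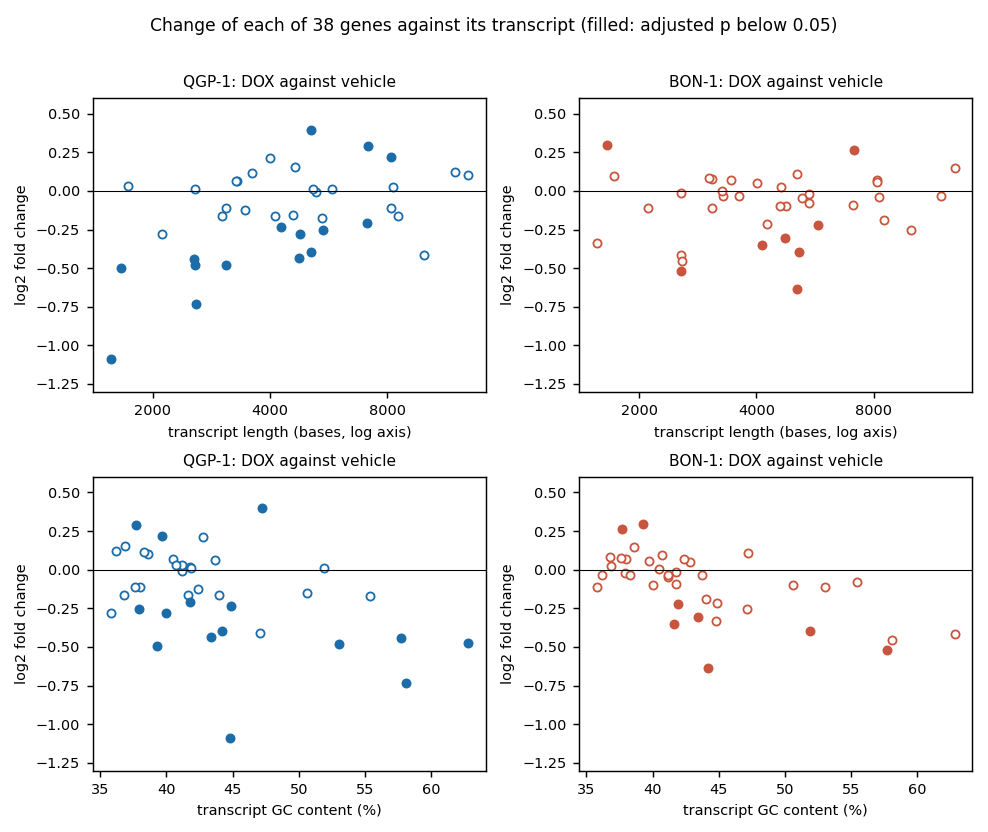
Log2 fold change with DOX (y axis) of the 38 genes against the length of the canonical transcript (top, bases, log axis) and its GC content (bottom, %), in QGP-1 (left) and BON-1 (right), with filled points at an adjusted p below 0.05. In BON-1 the genes of higher GC content lie lower, with a Spearman's rho of −0.63.

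Genes of S phase were counted beside the members. Of 37 S phase genes that are no members, 16 were lower and 1 was higher in QGP-1. In BON-1 12 were lower and 2 higher. Either way, 45.9% and 37.8% were called, the latter near the 35.3% of all genes. By direction the shares lay apart from those of all genes in both lines. In QGP-1 43.2% were lower and 2.7% higher, against 17.7% and 17.3% of all genes tested. In BON-1 32.4% were lower and 5.41% higher, against 18.3% and 17% of all genes tested. The summed level of the 37 S phase genes went from 5175 to 5311 CPM with vehicle to 4627 to 4708 CPM with DOX in QGP-1. In BON-1 it went from 4335 to 4674 CPM to 4150 to 4310 CPM. PRIM1, the small primase subunit, was lower by 0.74 in QGP-1 and CHAF1B, a chromatin assembly factor, by 0.65 in BON-1. Both also stand in the list of cell cycle genes that the study drew from these libraries. The groups of this sum did not overlap in either line, and its part in the members' changes was not tested.

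Repair genes outside the 38 came from lists of the same and of other pathways. Some genes stand in several of the lists used here, such as DDB2 and PCNA, so the counts are not separate. Of all genes tested, 17.7% were lower and 17.3% higher in QGP-1, and 18.3% and 17% in BON-1. Of 48 further recombination and Fanconi genes tested, 17 were lower and 3 higher in QGP-1 (35.4% and 6.25%, median −0.12). In BON-1 9 were lower and 2 higher (18.8% and 4.17%, median −0.15), the share lower being near that of all genes. CENPX, a histone-fold partner of FANCM, was lower in QGP-1 (−0.81). SFR1, an accessory factor of recombination, was higher in BON-1 (0.70, adjusted p = 2.41e-06) but was called lower in QGP-1. The interaction of cell line and DOX was called for SFR1 too. In BON-1 the single-strand annealing protein RAD52 was higher as well (0.54). DNA2, RHNO1 and CDC7 also stand in the list of cell cycle genes named above. Of 13 further checkpoint genes, 4 were lower in QGP-1 (30.8%) and 3 in BON-1 (23.1%), with RHNO1, a partner of the 9-1-1 clamp, at −0.64 and −0.65.

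The other repair pathways were counted in the same way, beside the shares of all genes tested. Those were 17.7% lower and 17.3% higher in QGP-1, and 18.3% and 17% in BON-1. Of 14 end joining genes, 4 were lower and 2 higher in QGP-1 (28.6% and 14.3%) and 5 lower and 1 higher in BON-1 (35.7% and 7.14%). XRCC6 and XRCC5, the Ku subunits, were at −0.45 and −0.41 in BON-1 and the ligase LIG4 at 0.52. XRCC6 also stands in lists of E2F and MYC target genes that the study drew from these libraries. Of 8 further mismatch repair genes, 3 were lower in QGP-1 (37.5%), among them the sliding clamp PCNA (−0.44). In BON-1 0 were called by edgeR or DESeq2, and 1 had an unadjusted p below 0.05. Base excision repair gave 7 lower and 2 higher of 21 genes in QGP-1 (33.3% and 9.52%) and 7 lower and 1 higher in BON-1 (33.3% and 4.76%). The glycosylase NTHL1 was at −0.84 in QGP-1 and the nuclease APEX2 at −0.73 in BON-1. For nucleotide excision repair, 4 were lower and 3 higher of 20 genes in QGP-1 (20% and 15%), near the shares of all genes. In BON-1 3 were lower and 5 higher of 21 (14.3% and 23.8%). DDB2, which recognises ultraviolet lesions, was lower in both lines (−0.87 and −0.84), and ERCC6, which acts on stalled transcription, was higher in both (0.35 and 0.55). Translesion synthesis gave 3 lower and 1 higher of 9 genes in QGP-1 (33.3% and 11.1%), with the polymerase subunit REV3L at 0.45, and 2 higher in BON-1 (22.2%). Of the p53 targets of the damage response, 4 were lower and 2 higher of 17 in QGP-1 (23.5% and 11.8%) and 4 lower and 1 higher of 16 in BON-1 (25% and 6.25%). TP53INP1, a p53-induced stress protein, was at −1.25 in QGP-1 and −0.52 in BON-1. CDKN1A, the p21 inhibitor of cyclin-dependent kinases, was at 0.24 in BON-1 and was not called in QGP-1. The interaction of cell line and DOX was called for both genes.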

How the data were processed

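RNA was measured in 12 libraries of QGP-1 and BON-1 cells. Per the labels and the study's methods, libraries of mRNA kept the strand, and STAR placed the reads on GRCh38. The authors deposited raw counts per gene for each line, without normalization, and TPM values, which scale counts by gene length. The counting program and its strand setting are not given in the sources used here. Columns were matched to libraries by name, and replicate numbers were not used as pairs in the reported fits. The study describes biologic triplicates, and nothing in the labels says how they were separated, so p-values measure the spread between these libraries.

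Each line's counts entered a separate fit in edgeR 4.0.16 under R 4.3.3 (filterByExpr, TMM, quasi-likelihood test, Benjamini-Hochberg over all genes, called at an adjusted p below 0.05). The interaction of line and DOX and the vehicle contrast were fitted on 12 libraries. The standard error is the absolute log2 fold change over the square root of F. The script was tested on simulated data. Alternatives were DESeq2 1.42.0, limma 3.58.1 on log2(TPM + 1) with and without centring (the centring was added after seeing the data), other scalings, filters, a replicate block, a minimum log2 fold change of 0.5 and leaving out each library. No 2 libraries of a group agreed within sampling noise. At this depth the spread between libraries sets the precision for most members, and counting error adds to it for those with few counts.

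The 38 members and all lists were chosen with earlier results of these data known. Values in each library are printed for members called in both lines or in the interaction, for the 3 lowest and 3 highest called members of each line, and for others chosen after their values were seen. Of the other lists, at most 2 called genes in each direction are named per line. Some items of these lists are not reported here. Of the symbols of these lists, 3 had no match in the tables. Promoter sequences are RefSeq entries of GRCh38.p14, the first for each symbol. Positions of genes are from GENCODE release 44 on GRCh38.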

Additional observations from a re-analysis of the deposited data

Results flagged for a closer look

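The response to DOX differed between the lines for 2 of the 38 genes by the test of the difference itself. For FANCL the log2 fold change in BON-1 minus that in QGP-1 was 0.80, and for TIMELESS it was −0.40 (edgeR interaction, adjusted p = 0.000208 and 0.0369). FANCL moved in opposite directions in the lines, whereas TIMELESS was lower in BON-1 and had a log2 fold change of 0.01 in QGP-1.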

How the results depend on the processing

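The log2 fold changes of MUC1 and of members called in either line were recomputed in both lines under the alternatives, with the FANCL and TIMELESS interactions. Among these, 539 kept their direction and their side of the threshold, 48 lost the call, 13 gained it and 10 turned sign. The 539 include values that were not called before or after. The sign turns include lost QGP-1 calls of BRCA1, BARD1, XRCC2 and MSH6, which are not among the 48. DESeq2 and median-of-ratios size factors left the counts of members called within 1.5 times of the reported ones. A minimum log2 fold change of 0.5 left 2 lower and 0 higher members in QGP-1, 2 lower and 0 higher in BON-1, 0 lower in the interaction and 5 higher in BON-1 against QGP-1 with vehicle. TPM values without centring gave 1 lower and 16 higher in QGP-1, 0 higher in BON-1 and 16 lower in the interaction. They put the all-gene median at 0.29 in QGP-1, −0.33 in the interaction and 0.30 in the vehicle contrast, where library size put it at 0.13. The cause was not tested. On these TPM values the signs turned in QGP-1 for BRCA1 (0.11), BARD1 (0.068), XRCC2 (0.043), CHEK1 (0.16) and MSH6 (0.087). With centring, 12 were lower and 2 higher in QGP-1 and 1 was higher in BON-1. Library size gave 1 higher in BON-1 and 3 lower in the interaction, and no filter gave 2 higher in the interaction.

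Leaving out 1 library gave 10 to 12 lower and 1 to 3 higher members in QGP-1, 5 to 8 lower and 0 to 2 higher in BON-1, and 0 to 1 lower and 1 to 2 higher in the interaction. The QGP-1 count of 1 higher came without vehicle replicate 1 or DOX replicate 3, and the BON-1 counts of 1, 1 and 0 higher without vehicle replicate 1, DOX replicate 1 and DOX replicate 3. The TIMELESS interaction was lost without BON-1 vehicle replicate 1, vehicle replicate 2 or DOX replicate 3 and without QGP-1 vehicle replicate 2, vehicle replicate 3 or DOX replicate 2. Signs of uncalled changes turned for TOPBP1 in QGP-1 without vehicle replicate 1 or DOX replicate 1 (range −0.0098 to 0.029), for TIMELESS in QGP-1 without vehicle replicate 3 or DOX replicate 1 (−0.049 to 0.091) and for BARD1 in BON-1 without DOX replicate 2 (−0.064 to 0.0075).

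Replicate numbers were shared by the groups, and the labels do not say whether they pair the samples. Deviations of same-numbered vehicle and DOX libraries had correlations between −0.01 and 0.04, within the −0.10 to 0.06 of unlike numbers. Not every library correlated best with its own number. With 3 libraries in a group this check cannot show that the samples were unpaired. A replicate block gave 13 lower and 3 higher members in QGP-1, 7 lower and 2 higher in BON-1, and 1 lower and 2 higher in the interaction. It put XRCC3 past the threshold in BON-1 (−0.43, adjusted p = 0.04), CLSPN in QGP-1 (−0.16, 0.0499) and the RAD51B interaction (0.79, 0.0353). For BON-1 against QGP-1 with vehicle the block could not be fitted, because it lies within the lines. Depth limits the genes with few counts, such as FANCE in BON-1.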
